A study of Mus musculus with 12 samples.

Results

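The genes described here encode 10 transcription factors and cofactors of the B lineage: Pax5, Ebf1, Pou2af1, Lef1, Tcf3, Foxo1, Ikzf3, Spib, Irf4 and Bach2. They were taken by name from a table of 27179 genes, and each of the 10 had an entry and passed the filter on low counts. The 10, and the gene lists used below, were chosen with earlier results of these data known. How their shares compare with those of all genes is thus partly set by that choice. Total RNA of sorted hematopoietic stem cells (HSCs), the cells that sustain all blood lineages, had been sequenced from 12 C57BL/6J mice, 3 for each of 4 genotypes. Group WT (libraries WT2, WT3 and WT4) was wild-type and group E (E1, E2 and E3) carried the Emu-myc transgene, in which an immunoglobulin heavy chain enhancer, active chiefly in B-lineage cells, drives Myc. Group C (C1, C2 and C3) had lost both Casp1 and Casp11, the inflammatory caspase genes, and group CE (CE1, CE2 and CE3) combined Emu-myc with that double knockout. The labels give no age, no sex and no surface markers for the sort. The labels do not say how the mice were related, so p-values measure the spread between these libraries.

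B-cell development from a lymphoid progenitor runs through an ordered network of such factors. The E protein gene Tcf3 and the forkhead factor gene Foxo1 act early and help to switch on Ebf1, Ebf1 and Pax5 then install and hold the B-cell program, and the remaining factors act at later or branching steps. In an HSC the B-specific part of this network is normally silent or barely transcribed, while Tcf3 and Foxo1 are used in stem cells as well. Pou2af1 encodes a coactivator of the octamer-binding factors OCT1 and OCT2. Lef1 encodes a nuclear partner of beta-catenin that is used by pro-B cells. Ikzf3 (Aiolos) is an Ikaros family gene of later B cells, Spib an ETS factor gene of plasmacytoid dendritic cells and B cells, Irf4 an interferon regulatory factor gene of pre-B and plasma cells, and Bach2 a repressor gene that restrains plasma cell formation.

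The promoters of 9 of the 10 genes were listed in RefSeq sequences of build GRCm38.p6, in 13 windows that run from 250 bases before to 50 bases after an annotated start. Ikzf3 was the gene without an entry. Of the windows, 5 are printed 5′ to 3′ on the gene's strand: 1 for each of the 4 genes that changed most with the transgene, and that of Foxo1, which holds the motif of EBF1. In the first 4, capitals mark every E-box (CANNTG), the core recognised by E proteins such as the product of Tcf3. In that of Foxo1, capitals mark the palindromic EBF motif, TCCC and GGGA around any 2 bases. The Pax5 window lies at chr4:44710645-44710944 on the minus strand, the Ebf1 window (the second of 2) at chr11:44619978-44620277 on the plus strand and the Pou2af1 window at chr9:51213440-51213739 on the plus strand. The Lef1 window (the fourth of 4) lies at chr3:131156044-131156343 and the Foxo1 window at chr3:52268087-52268386, both on the plus strand. Of the windows of these genes that are not printed, that of Ebf1 holds no E-box. Those of Lef1 hold 1, 2 and 3 E-boxes, none of them of the form CACGTG that the printed Lef1 window holds.
Pax5: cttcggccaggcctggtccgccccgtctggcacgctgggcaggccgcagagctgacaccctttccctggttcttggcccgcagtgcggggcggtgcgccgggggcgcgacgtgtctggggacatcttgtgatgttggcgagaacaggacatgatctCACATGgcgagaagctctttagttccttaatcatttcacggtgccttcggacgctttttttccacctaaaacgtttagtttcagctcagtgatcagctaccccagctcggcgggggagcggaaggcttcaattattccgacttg
Ebf1: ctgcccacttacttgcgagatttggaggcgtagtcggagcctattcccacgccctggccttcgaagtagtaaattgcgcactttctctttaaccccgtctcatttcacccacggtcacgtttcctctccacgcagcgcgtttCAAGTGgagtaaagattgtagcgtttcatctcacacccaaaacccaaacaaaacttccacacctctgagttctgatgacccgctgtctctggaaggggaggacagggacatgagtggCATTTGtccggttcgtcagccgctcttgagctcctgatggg
Pou2af1: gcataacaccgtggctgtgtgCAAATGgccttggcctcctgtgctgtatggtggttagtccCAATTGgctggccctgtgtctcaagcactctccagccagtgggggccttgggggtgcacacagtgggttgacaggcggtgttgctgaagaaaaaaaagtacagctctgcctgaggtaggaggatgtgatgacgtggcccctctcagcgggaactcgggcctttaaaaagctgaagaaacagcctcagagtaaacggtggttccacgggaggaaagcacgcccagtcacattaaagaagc
Lef1: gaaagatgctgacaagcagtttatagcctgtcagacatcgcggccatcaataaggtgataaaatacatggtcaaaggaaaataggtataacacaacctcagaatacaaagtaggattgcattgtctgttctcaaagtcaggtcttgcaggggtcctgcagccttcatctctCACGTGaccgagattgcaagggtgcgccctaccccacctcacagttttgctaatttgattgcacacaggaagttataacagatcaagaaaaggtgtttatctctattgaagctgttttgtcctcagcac
Foxo1: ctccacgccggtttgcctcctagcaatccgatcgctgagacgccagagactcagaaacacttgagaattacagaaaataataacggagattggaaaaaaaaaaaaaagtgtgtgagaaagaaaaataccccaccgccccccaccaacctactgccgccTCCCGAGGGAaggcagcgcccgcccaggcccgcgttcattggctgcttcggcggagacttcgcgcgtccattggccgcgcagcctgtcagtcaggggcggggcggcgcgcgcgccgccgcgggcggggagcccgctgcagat

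An E-box was present in 11 of the 13 windows, and in 72.3% of all 32817 promoter windows of that length. Both strands were searched for each motif, and the palindromic CACGTG, the E-box preferred by MYC, is also counted under CANNTG. That form occurred in 1 of the 13 windows, the printed Lef1 window, against 7.15% of all windows. The EBF motif occurred in the Foxo1 window alone among the 13, against 0.905% of all. The ETS motif CCGGAAGT occurred in the Tcf3 window (3.89% of all), and the octamer ATGCAAAT in none of the 13 (1.74% of all). These are matches of letters in short windows and not measured binding.

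Transcription of these genes differed widely in the sorted cells. Levels between genes are given as group mean CPM (counts scaled by library size) per kilobase of the longest annotated coding transcript, over the 3 WT libraries. Tcf3 stood at 118 CPM per kb, far above Pou2af1 at 2.73, Foxo1 at 1.72, Bach2 at 1.15 and Spib at 1.07. Lef1 (0.752), Irf4 (0.519), Ebf1 (0.369), Ikzf3 (0.335) and Pax5 (0.316 CPM per kb) were the lowest. Pax5, the commitment factor, was thus covered by 13 to 160 counts in a library and Ebf1 by 6 to 196, so counting error adds to their spread. Exons of Lef1, Foxo1, Pax5 and Bach2 overlap antisense or unclassified transcripts over 13.7%, 7.78%, up to 7.18% and 5.40% of their bases. Strandedness of the counts is not given, and reads of such a pair cannot be told apart. In bulk RNA, fewer cells that carry a transcript and less of it per cell cannot be told apart either.

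**Figure D1:**
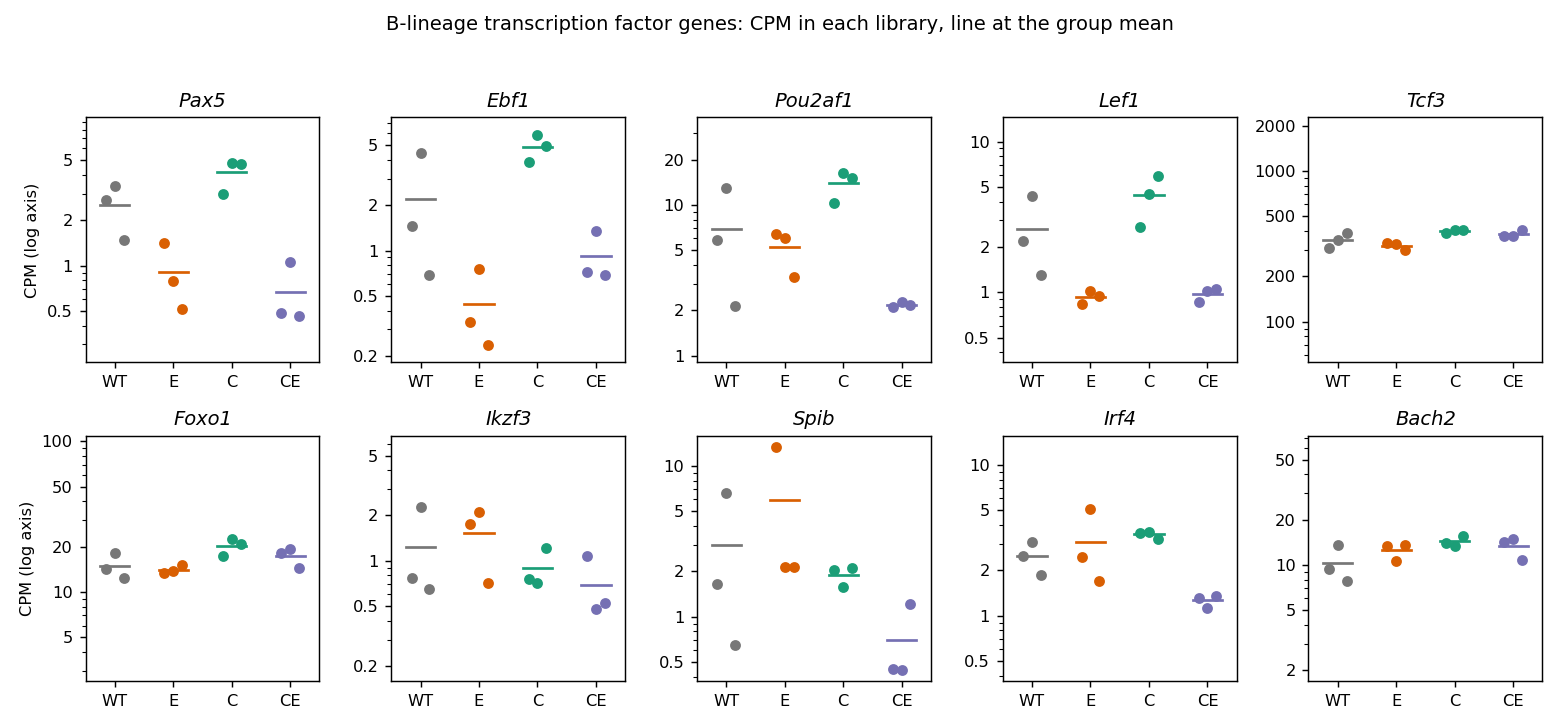
Each panel plots the CPM of 1 gene on a log axis, with 1 point per library, the 4 genotype groups side by side and a line at the group mean (n = 3 each). The log axes all span the same fold range but differ in level. The group means of Pax5, Ebf1, Pou2af1 and Lef1 were highest in C, as were those of Tcf3, Foxo1, Irf4 and Bach2. Tcf3, Foxo1 and Bach2 had the smallest fold range over the libraries.

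The libraries held 24529611 to 34065910 counts, and no pair of columns was identical. All 12 markers on the stem cell list, such as Kit, Hlf and Mecom, were above 1 CPM in every library. Casp1 averaged 5.89 ± 0.695 CPM over the C libraries and 6.12 ± 0.562 over those of CE, against 39.1 ± 9.0 for WT and 42.1 ± 3.82 for E (SD, n = 3 each). Casp4, the mouse gene also called Casp11, averaged 8.97 ± 1.65 CPM for C and 10.8 ± 2.51 for CE, against 13.01 ± 1.31 for WT and 14.7 ± 2.40 for E, and did not pass the test in either caspase comparison. Myc averaged 426 ± 28.5 CPM for WT and 433 ± 13.1 for E, 326 ± 8.69 for C and 367 ± 36.9 for CE, and did not pass with the transgene on either background. Y-linked transcripts reached 93.3 CPM or more in every C library and in CE1 and CE2, and 0.257 CPM or less in the other 7 libraries. C1 and C3 had counts for 22900 and 21247 genes, against 17310 to 18863 elsewhere. Myeloid and erythroid transcripts were present throughout. The summed CPM of 9 neutrophil markers ranged from 8324 to 13270 over the libraries, that of 8 macrophage markers from 35.9 to 63.5, and that of 6 megakaryocyte markers from 435 to 643. Among the neutrophil markers, Mpo, Elane, Prtn3 and Ctsg had group means between 649 and 7690 CPM. The others (S100a8, S100a9, Camp, Ltf and Ly6g) were at 8.29 CPM or less in every library. For 6 basophil and mast cell markers the sum lay between 165 and 260 in WT, 92.4 and 283 in E, 92.9 and 137 in C, and 71.1 and 73.2 in CE. The sum of 7 erythroid markers was between 113 and 286 in WT, 62.8 and 179 in E, 120 and 144 in C, and 56.2 and 82.1 in CE. For 12 T and NK cell markers the sum was between 177 and 314 over the libraries. Nkg7 gave most of it, with group means of 156 to 191 CPM, followed by Lck at 30.6 to 50.6. Cd3e was at 0.208 CPM or less, and Cd3d and Cd3g at 0.676 or less.

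A core of 4 genes, Pax5, Ebf1, Pou2af1 and Lef1, fell with the transgene when its effect was averaged over both caspase backgrounds. Pax5 was 4.2-fold lower (log2 -2.07, SE 0.288), Ebf1 5.06-fold (log2 -2.34, SE 0.392), Lef1 3.55-fold (log2 -1.83, SE 0.274) and Pou2af1 2.92-fold (log2 -1.55, SE 0.309). The adjusted p-values were 0.00219, 0.0116, 0.00434 and 0.0374, from edgeR's quasi-likelihood test with Benjamini-Hochberg adjustment over 14473 genes. Of all genes tested, 0.539% passed in this contrast, and 0.352% passed as lower, against 4 of the 10 factor genes. The other 6 factor genes did not pass, and 5 of those had lower and 1 a higher estimate. The median log2 difference of the 10 was -0.40, beside -0.000404 over all genes. For Pax5 and Lef1 every one of the 6 transgenic libraries lay below every one of the 6 without the transgene, a separation found as lower in 0.311% of all genes. Pax5 and Lef1 stayed past the threshold in each of the 19 alternatives run, with adjusted p of at most 0.0407 and 0.0463. Ebf1 passed in 16 of 19, and did not pass without CE1 (adjusted p = 0.0506), without E3 (0.0567) or without C1 and C3 together (0.0963). Pou2af1 passed in 6 of 19, since leaving out any library other than WT4 took Pou2af1 out of the call (adjusted p = 0.0546 to 0.124). CE was the only group that mixed libraries with (CE1 and CE2) and without Y-linked transcripts (CE3). A covariate for these transcripts is set by that difference alone, and with it Pou2af1 did not pass either (adjusted p = 0.0848).

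On the caspase knockout background, CE against C, 3 of these genes passed on their own. Pax5 stood at 3.001, 4.77 and 4.75 CPM in C1, C2 and C3, and at 0.484, 1.05 and 0.460 CPM in CE1, CE2 and CE3. Every CE library was thus below every C library for this gene. It fell 6.25-fold (log2 -2.65, SE 0.409, 95% interval -3.52 to -1.77, adjusted p = 0.0137 by edgeR's quasi-likelihood test). Pou2af1, the octamer coactivator gene, was at 10.4, 16.3 and 15.03 CPM in C1 to C3 and at 2.11, 2.28 and 2.17 CPM in CE1 to CE3. Its CE libraries were nearly identical and lay far under the C range, with a 6.37-fold fall (log2 -2.67, SE 0.453, adjusted p = 0.0246). Lef1 was at 2.73, 4.50 and 5.94 CPM in C1 to C3 and at 0.864, 1.02 and 1.05 CPM in CE1 to CE3. It fell 4.48-fold (log2 -2.16, SE 0.382, adjusted p = 0.0322), again with no overlap.

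Ebf1, the factor that opens the B-cell program, had an effect of the same size as these 3 without passing the test. It was at 3.86, 5.84 and 4.95 CPM in C1 to C3 and at 0.726, 1.36 and 0.690 CPM in CE1 to CE3. The ranges were apart, and the log2 difference was -2.40 (SE 0.522, 95% interval -3.51 to -1.28, adjusted p = 0.123 by edgeR). Ebf1 passed in 4 of 14 alternatives, among them DESeq2 (adjusted p = 0.0044) and an edgeR fit of the C and CE libraries alone (0.00119). It passed in 0 of the 6 edgeR fits that left out 1 of these libraries (adjusted p = 0.207 to 0.557). Irf4 was at 3.52, 3.61 and 3.24 CPM in C1 to C3 and at 1.31, 1.12 and 1.35 CPM in CE1 to CE3. The groups did not overlap and both were tight, with a log2 difference of -1.45 (SE 0.334, adjusted p = 0.165 by edgeR and 0.0232 by DESeq2). Irf4 passed in 3 of 14 alternatives and in 0 of the 6 that left out 1 library (adjusted p = 0.234 to 0.527 by edgeR). Spib was at 1.58 to 2.09 CPM in C and at 0.442 to 1.22 CPM in CE, which again did not overlap (log2 -1.42, SE 0.844, adjusted p = 0.999).

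In total 3 of the 10 factor genes passed as lower in CE against C, where 0.207% of all genes passed and 0.145% passed as lower. The estimates of all 10 were lower, with a median log2 difference of -1.44 beside 0.00793 over all genes tested. An unadjusted p under 0.05 was reached by 5 of the 10, against 5.14% of all genes. Ranges were apart for 6 of the 10, each with CE below C, against 7.86% of all genes. Tcf3 (log2 -0.08, SE 0.0986), Foxo1 (log2 -0.23, SE 0.154), Bach2 (log2 -0.11, SE 0.188) and Ikzf3 (log2 -0.38, SE 0.528) did not pass and had overlapping groups. The intervals bound the effect on Tcf3 to between -0.289 and 0.132 and that on Foxo1 to between -0.556 and 0.101 on the log2 scale. CE3 was the library of the 6 without Y-linked transcripts. With a Y-linked covariate Pax5, Pou2af1 and Lef1 were at log2 -2.44, -2.67 and -2.22, with adjusted p of 0.0934, 0.127 and 0.137. Those estimates rest on CE1 and CE2 against C, since no group other than CE mixes libraries with and without Y-linked transcripts. Leaving out C2, C3, CE1 or CE3 took each of these genes out of the call. Leaving out CE2 did so for Pou2af1 and Lef1, and leaving out C1 for Pou2af1. Their log2 differences then stayed between -3.14 and -1.88.

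**Figure D2:**
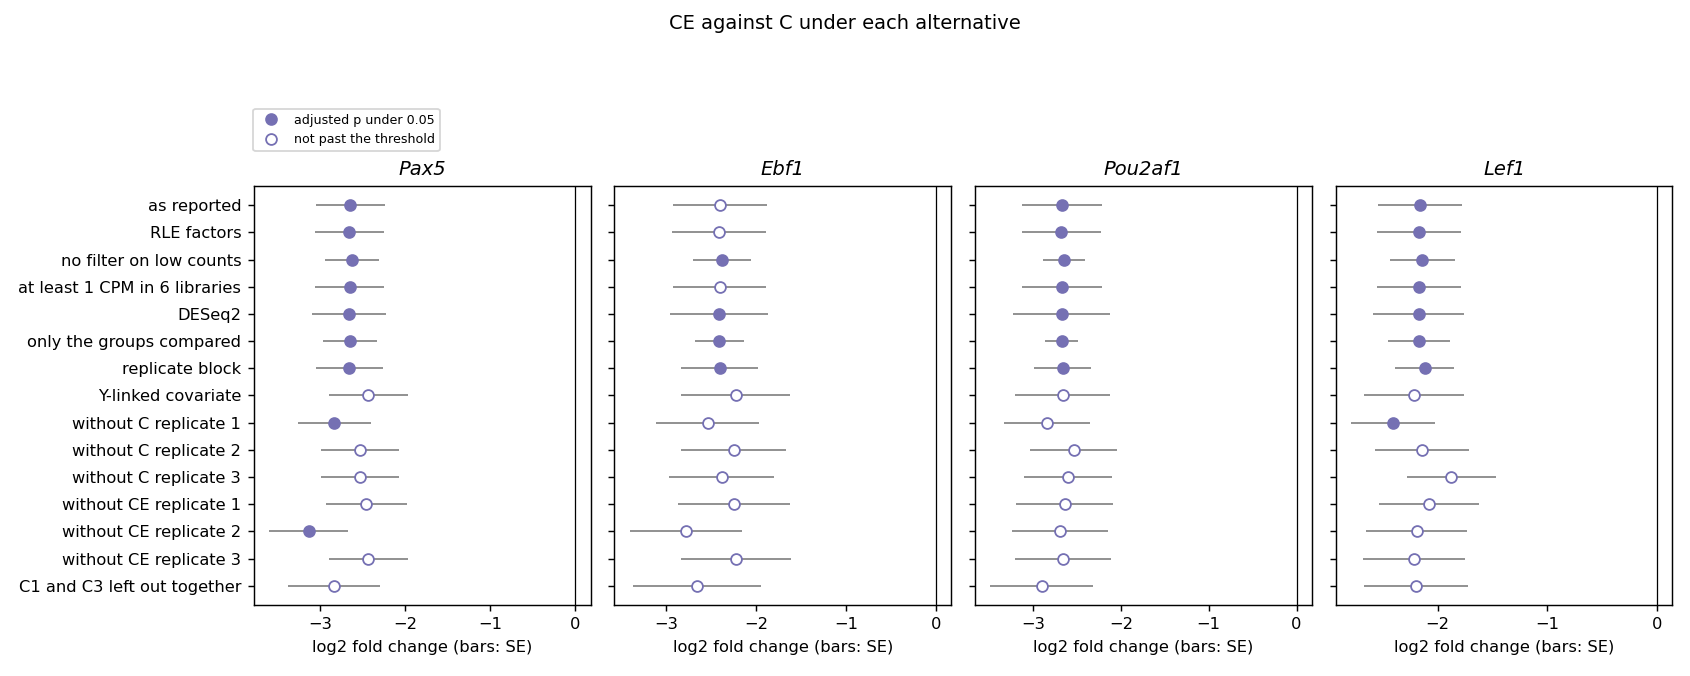
The log2 fold change of CE against C is plotted for Pax5, Ebf1, Pou2af1 and Lef1 as reported and under each alternative, with bars for the SE and filled points for an adjusted p under 0.05. The estimates stayed between -3.14 and -1.88 while their side of the threshold changed between alternatives.

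With caspases intact, E against WT, Pax5, Lef1 and Ebf1 had lower estimates without passing. Pax5 was at 2.74, 3.38 and 1.47 CPM in WT2, WT3 and WT4 and at 1.42, 0.791 and 0.514 CPM in E1, E2 and E3. The groups did not overlap, with WT4 at 1.47 and E1 at 1.42, and the log2 difference was -1.50 (SE 0.406, 95% interval -2.36 to -0.632, adjusted p = 0.382 by edgeR). Lef1 was at 2.19, 4.36 and 1.299 CPM in WT2 to WT4 and at 0.833, 1.01 and 0.948 CPM in E1 to E3. The E libraries were close to one another and all lay under WT4, the lowest of the WT libraries (log2 -1.50, SE 0.393, adjusted p = 0.361). Ebf1 was at 1.46, 4.46 and 0.693 CPM in WT2 to WT4 and at 0.333, 0.759 and 0.237 CPM in E1 to E3. WT4 fell below E2, so the groups overlapped (log2 -2.28, SE 0.587, adjusted p = 0.361 by edgeR and 0.0305 by DESeq2). WT3 held the most of each of these 3 genes. Without WT3 the log2 differences of Pax5, Lef1 and Ebf1 were -1.24, -0.911 and -1.25.

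Pou2af1 did not pass with caspases intact. It was at 5.88, 12.9 and 2.12 CPM in WT2 to WT4 and at 6.42, 6.01 and 3.32 CPM in E1 to E3. The E values lay inside the WT range (log2 -0.42, SE 0.426, adjusted p = 0.839), and without WT3 the sign turned (log2 0.38). No factor gene passed in E against WT by edgeR, where 0.0829% of all genes passed. The E range lay below the WT range for 2 of the 10 (Pax5 and Lef1), against 3.56% of all genes. An unadjusted p under 0.05 was reached by 3 of the 10 (Pax5, Ebf1 and Lef1), against 6.58% of all genes. Ebf1 passed with DESeq2, and these 3 passed in edgeR without the filter on low counts (adjusted p = 0.000889, 1.24e-06 and 0.000573). No other alternative called a factor gene in E against WT. Estimates were lower for 6 and higher for 4 of the 10, with a median log2 difference of -0.103 beside -0.00248 over all genes.

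**Figure D3:**
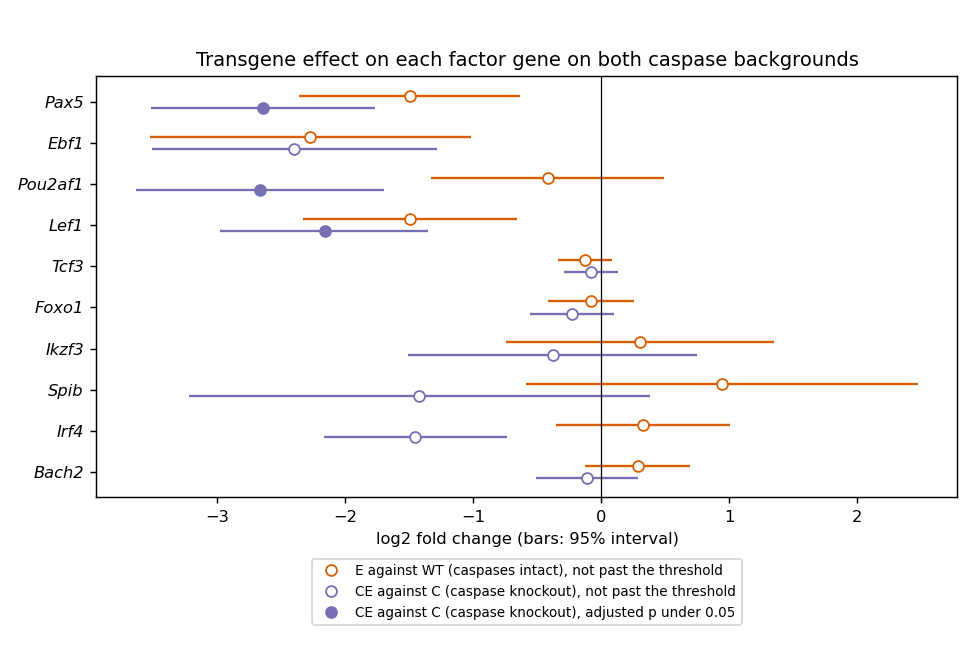
Points give the log2 fold change of each gene with the transgene, on intact caspases (E against WT) and on the caspase knockout (CE against C), with bars for the 95% interval and filled points for an adjusted p under 0.05. For Pax5, Ebf1 and Lef1 both intervals lie below 0, while for Pou2af1 and Irf4 only the interval on the knockout background does.

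The difference between the transgene effects on these backgrounds was tested as well. No gene passed by edgeR over all 14473 (305 had an unadjusted p under 0.05, which is 2.11%), and DESeq2 also gave 0. Among the factor genes, Pou2af1 (log2 -2.25, SE 0.616), Irf4 (log2 -1.78, SE 0.463) and Spib (log2 -2.37, SE 1.11) had an unadjusted p under 0.05 in edgeR's quasi-likelihood test, each with an adjusted p of 1. For Ebf1 the estimated difference was -0.12 (SE 0.831, 95% interval -1.89 to 1.65), which leaves a wide range. For Pax5 it was -1.15 (SE 0.577) and for Lef1 -0.67 (SE 0.548), neither past the threshold. Without the filter on low counts these 3 genes passed (adjusted p = 9.44e-07 for Pou2af1, 0.0112 for Irf4 and 0.00772 for Spib by edgeR), so for them the call depends on that filter. No other setting called a factor gene here.

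Spib and Irf4 owed their spread in E to single libraries. Spib was at 13.4 CPM in E1 against 2.15 and 2.13 in E2 and E3, and at 6.66 CPM in WT3 against 1.64 and 0.650 in WT2 and WT4. The same 2 libraries, E1 and WT3, were highest for Siglech, a surface lectin gene of plasmacytoid dendritic cells, at 12.5 and 9.50 CPM, while the other 10 lay between 0.346 and 1.296 CPM. For 7 markers of these dendritic cells, each with a count in every library, the summed CPM was 309 in E1, 216 to 242 in WT, 140 and 153 in E2 and E3, 155 to 187 in C and 126 to 157 in CE. Bst2, which other cells also express, made up 69.7 to 91.8% of that sum. Without it the sum was 93.5 in E1 and 60.6 in WT3, against 14.8 to 44.8 in the other libraries. Without E1 the log2 difference of Spib in E against WT turned from 0.95 to -0.49. The part of such cells in the Spib values was not tested.

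Irf4 was at 5.12 CPM in E2 against 2.46 and 1.70 in E1 and E3, and at 2.48, 3.08 and 1.86 CPM in WT2 to WT4. E2 was also the highest library for Mzb1, a chaperone gene of antibody-secreting cells, at 38.1 CPM against 3.98 to 22.0 elsewhere. The immunoglobulin light chain gene Igkc was at 311 CPM in E2 and 253 CPM in E1, against 5.94 to 83.2 in the other libraries. The summed CPM of 7 plasma cell markers, of which 6 or 7 had a count in each library, was 1602 in E2 and 871 in E1, against 461 to 665 in WT, 532 to 702 in C and 366 to 590 in CE. Ighm made up 55.3 to 89.7% of it, and without Ighm the sum was 462 in E2 and 390.0 in E1, against 37.9 to 144 in the other libraries. Without E2 the log2 difference of Irf4 in E against WT turned from 0.33 to -0.26. The part of plasma cells in the Irf4 values was not tested. Of 7 markers of mature B cells, Ms4a1, which encodes CD20, was at 0 in each WT and CE library and at 0.0345 CPM or less in C. It was at 0.875, 0.253 and 0.237 CPM in E1 to E3. The sum of the 7, which H2-Ob dominated, was between 78.3 and 118 in WT, 102 and 106 in E, 111 and 119 in C, and 92.5 and 107 in CE. Without H2-Ob the sum was 7.4 to 22.1 in WT, 7.23 to 12.2 in E, 18.3 to 24.4 in C and 6.57 to 7.64 in CE.

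**Figure D4:**
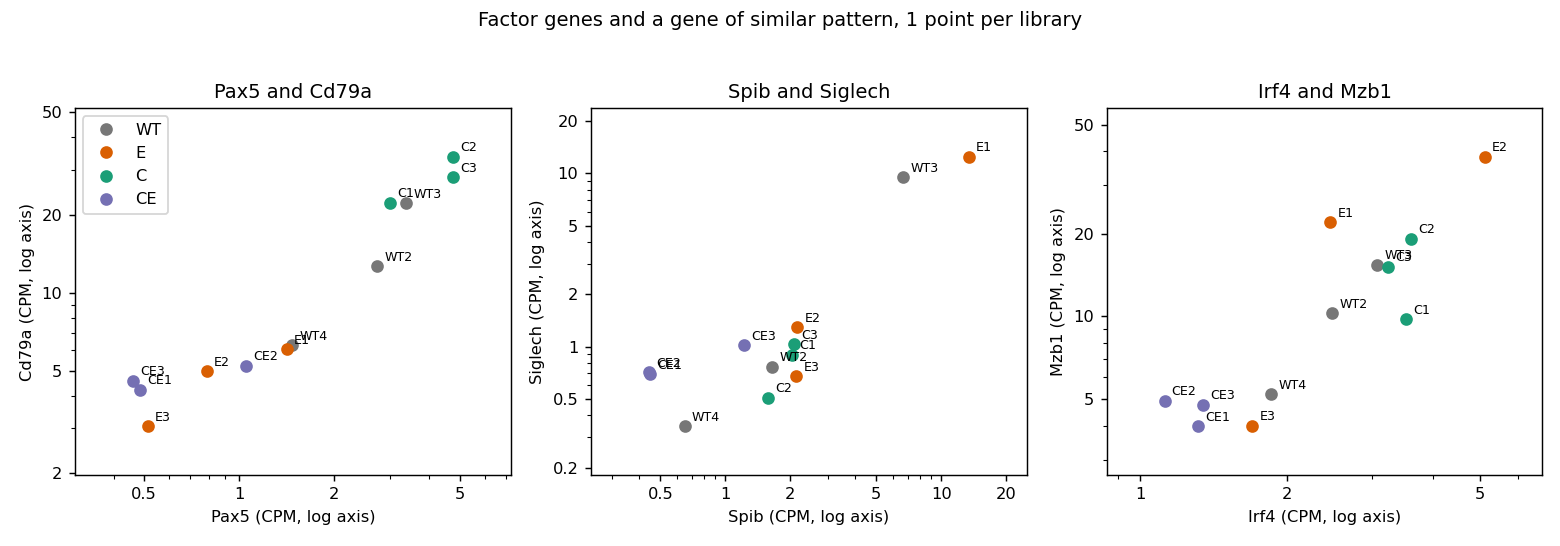
Each panel sets a factor gene against a gene of similar pattern, both in CPM on log axes, with 1 labelled point per library coloured by group. Pax5 and Cd79a spread over the libraries together, whereas Spib with Siglech and Irf4 with Mzb1 have their highest points in single libraries (E1 and WT3, and E2).

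Ikzf3, the Aiolos gene, had 14 to 67 counts a library. Its values were 0.767, 2.26 and 0.650 CPM in WT2 to WT4, 1.75, 2.12 and 0.711 in E1 to E3, 0.759, 0.715 and 1.22 in C1 to C3 and 1.07, 0.476 and 0.525 in CE1 to CE3. The 4 groups overlapped. Bach2 ranged from 7.79 to 15.6 CPM over the 12 libraries and Foxo1 from 12.4 to 22.5 CPM, with the group means of both lowest where caspases were intact. Foxo1, which helps to turn on Ebf1, averaged 20.2 ± 2.59 CPM for C and 17.3 ± 2.5 for CE, against 14.9 ± 2.89 for WT and 14.1 ± 0.862 for E (SD, n = 3 each). Tcf3, the most abundant of the 10, averaged 401 ± 10.4 CPM for C and 380 ± 19.9 for CE, against 348 ± 38.5 for WT and 319 ± 18.5 for E (SD, n = 3 each).

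Loss of the caspases without the transgene was asked by C against WT, which shares the WT libraries with E against WT and the C libraries with CE against C. No factor gene passed, with 0.656% of all genes past the threshold in edgeR. An unadjusted p under 0.05 was reached by 4 of the 10, against 23.2% of all genes. Estimates were higher for 8 of the 10, with a median log2 difference of 0.478 beside -0.0122 over all genes. Ebf1 was at log2 1.13 (SE 0.483, adjusted p = 0.179), Pou2af1 at 0.99 (SE 0.415, 0.17), Foxo1 at 0.44 (SE 0.155, 0.114) and Bach2 at 0.48 (SE 0.19, 0.148). The order of the group means of Pax5, Ebf1, Pou2af1 and Lef1 began with C and WT, and for each of these genes the ranges of C and WT overlapped. Without WT3, the WT library with most of these transcripts, 5 factor genes passed as higher in C (Ebf1, Pou2af1, Lef1, Foxo1 and Bach2, adjusted p = 0.0346 to 0.0479), and without WT4 Tcf3 did (adjusted p = 0.0429). Tcf3 and Irf4 were higher in each C library than in any WT library, against 12.5% of all genes. The Y-linked covariate is set by CE1 and CE2 against the single library CE3, so its correction of C against WT carries the noise of CE3. With that covariate Pax5 was at log2 -0.0246, Ebf1 at 0.53, Foxo1 at 0.0664 and Bach2 at 0.038. Of the 10, 0 then had an unadjusted p under 0.05. Every C library carried Y-linked transcripts and no WT library did, so the knockout and this difference cannot be told apart.

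Among transgenic mice, CE against E, 0 of the 10 passed in edgeR, where 1.58% of all genes did, and 1 passed with DESeq2 (Spib, adjusted p = 0.0208). In other edgeR fits, 2 passed with only the E and CE libraries (Spib and Pou2af1) and 3 without the filter on low counts (Spib, Pou2af1 and Irf4). An unadjusted p under 0.05 in edgeR was reached by 5 of the 10, against 22.6% of all genes. Irf4 (log2 -1.31, SE 0.337, adjusted p = 0.0604), Spib (log2 -3.04, SE 0.824, adjusted p = 0.066) and Pou2af1 (log2 -1.27, SE 0.456, adjusted p = 0.124) were lower in each CE library than in any E library, against 15.1% of all genes. Without E1 the difference of Spib shrank to log2 -1.61, and without E2 that of Irf4 to -0.708. Pax5 (log2 -0.43, SE 0.449), Lef1 (log2 0.07, SE 0.419) and Ebf1 (log2 1.0, SE 0.624) did not pass, with intervals of -1.39 to 0.525, -0.828 to 0.96 and -0.327 to 2.34. Tcf3 was higher in each CE library than in any E library (log2 0.25, SE 0.0988, adjusted p = 0.148), a separation that 14.8% of all genes showed. In CE, CE1 and CE2 carried Y-linked transcripts and no E library did.

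A list of B-cell program genes, among them known targets of these factors, included several that fell with the transgene. It holds 24 early B-cell and B-cell receptor genes, of which 23 were tested. Since the list was chosen with earlier results of these data known, its shares of passing genes are descriptions. In CE against C 7 of 23 passed as lower and 0 as higher (0.145% and 0.0622% of all genes). Among them were the receptor subunit gene Cd79a, the adaptor gene Blnk, the recombinase gene Rag1 and the surrogate light chain genes Vpreb1, Vpreb3 and Igll1. Cd79a, a direct target of EBF1 and PAX5, fell by the most of those named (log2 -2.58, SE 0.350, adjusted p = 0.00708 by edgeR) and Blnk by the least (log2 -1.39, SE 0.251, adjusted p = 0.0342). The count of 7 was 0 without CE1, CE3 or C1 and C3 together, 2 without CE2, 3 without C2, 4 without C3, and 1 with the Y-linked covariate, while DESeq2 called 10. Kinase genes of the receptor that are also used outside B cells did not pass, with Btk at log2 -0.06, Syk at 0.05 and Lyn at 0.06. In E against WT Vpreb1, Vpreb2 and Igll1 passed as lower (0.0345% of all genes did), with log2 differences of -2.30, -2.99 and -2.36. None of these 3 passed in the fit of the E and WT libraries alone (adjusted p = 0.107, 0.13 and 0.107) or without E1, E3, WT2 or WT3, nor did Vpreb2 without E2, and 6 list members passed as lower without WT4. Vpreb1 and Vpreb2 are near-identical copies whose reads may have been split between them. Averaged over both backgrounds 9 of 23 passed as lower (0.352% of all genes), with a median log2 difference of -0.412, and 7 to 11 did over the 19 alternatives.

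Fcrla, an Fc receptor-like gene of more mature B cells, had a higher estimate in E against WT. It was at 0.402, 1.28 and 0.433 CPM in WT2 to WT4 and at 3.71, 3.79 and 1.46 CPM in E1 to E3. The groups did not overlap, with E higher as in 4.46% of all genes (log2 2.05, SE 0.487, adjusted p = 0.265 by edgeR), and in C and CE it lay between 0.450 and 1.28 CPM. Rag1 was the list member that passed in C against WT, as higher (log2 1.72, SE 0.311, adjusted p = 0.0382 by edgeR, with 0.359% of all genes higher), from 4.71, 9.97 and 4.89 CPM in WT2 to WT4 to 14.0, 28.3 and 22.5 CPM in C1 to C3. With the Y-linked covariate Rag1 was at log2 0.927 (adjusted p = 0.539), and it did not pass without C2 (0.0869), C3 (0.211) or WT2 (0.201). Nor did Rag1 pass in the fit of the C and WT libraries alone. In CE against E none of the 23 passed.

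The genes nearest in pattern to each factor were sought among 11051 genes, by Pearson's r of log2 CPM over the 12 libraries, which fall into the 4 genotype groups. These values are descriptions, since neighbouring genes share library and depth. Near to Pax5 were Cd79a (r = 0.955) and the chromatin gene Cecr2 (0.927). Ebf1 had the growth factor receptor gene Gfra2 (0.97), Igll1 (0.95) and Cd79a (0.936), and Lef1 had Gfra2 (0.965), Cd79a (0.957) and Vpreb3 (0.955). Pou2af1 had Blnk (0.933) and Vpreb3 (0.908). Spib was nearest to Septin10 (0.871), Cybb (0.86) and Siglech (0.858), and Irf4 to Mzb1 (0.885), Jcad (0.861) and Wbp11 (0.846). Tcf3 had Kcnab2 (0.978), Cox10 (0.975) and Ttc7 (0.966), none of them a B-cell gene. For Foxo1 they were Zbtb16 (0.914), Tiam1 (0.907) and Rundc3b (0.902), for Bach2 Camk1d (0.926), Oga (0.908) and Ssh2 (0.904), and for Ikzf3 Ubr7 (0.871), Pde5a (0.87) and Fbxw11 (0.851).

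Relatives of the 10 factors in the same gene families were also listed. Of 15 such paralogs 13 were tested, and 0 passed in the transgene contrasts or in C against WT. The E proteins Tcf4 and Tcf12, the Ikaros genes Ikzf1 and Ikzf2 and the forkhead genes Foxo3 and Foxo4 were each at 34.2 CPM or more in every library. Tcf7, the T-lineage relative of Lef1, had the smallest p of the list in CE against C (log2 -0.54, SE 0.189, adjusted p = 0.669) and was at log2 -0.50 (SE 0.193, adjusted p = 0.705) in E against WT. Spic, an ETS gene related to Spib and known from red pulp macrophages, was the paralog that passed, as lower in CE than in E (log2 difference of -1.13, SE 0.266, with an adjusted p of 0.0481 by edgeR, where 1.11% of all genes passed as lower). It was at 3.21, 3.76 and 3.56 CPM in E1 to E3 and at 1.59, 1.77 and 1.45 CPM in CE1 to CE3. The call was lost when any 1 of these 6 libraries was left out (adjusted p = 0.0882 to 0.19) and with the Y-linked covariate (0.136). It was also lost with DESeq2, which called 0 paralogs as lower and 1 as higher in this comparison. Of 8 macrophage markers 2 passed as lower in the same comparison (Cd5l at log2 -2.21 and Vcam1 at -1.28), with 7 of 8 estimates lower and a median log2 difference of -1.08. The count of 2 was 0 without CE1, CE2, E1, E2 or C1 and C3 together, and with the Y-linked covariate. It was 1 without CE3 and 3 with DESeq2. The part of macrophages in the Spic value was not tested. The median log2 difference of the paralogs was 0.107 in E against WT and 0.0762 in CE against C.

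Another 20 regulators of lymphoid cells, all of them tested, held 0 genes past the threshold in each of the 6 contrasts of the main fit. Medians of their log2 differences were 0.0663 in E against WT and 0.0387 in CE against C. The calls in the caspase comparisons depended on the setting. DESeq2 called 2 regulators as higher in C against WT, and 1 as lower and 2 as higher in CE against E. With the replicate block 1 passed as lower and 2 as higher in C against WT, and 2 and 3 in CE against E. In the transgene contrasts only the fit without the filter on low counts called any. Sox4, an HMG-box factor gene that lies upstream of Ebf1 in progenitors, was at log2 0.33 (SE 0.141, adjusted p = 0.882) in CE against C. Prdm1, the plasma cell repressor gene, was at log2 0.94 (SE 0.356, adjusted p = 0.703) in E against WT and at -1.23 (SE 0.36, adjusted p = 0.0776) in CE against E. Pou2f2, which encodes the OCT2 partner of the Pou2af1 product, had a log2 difference of 0.71 between CE and E (SE 0.207, adjusted p = 0.0767). Klf2, a shear- and stress-inducible factor gene, was at log2 -0.86 (SE 0.367, adjusted p = 0.747) in E against WT, with 1846 CPM in WT4 against 631 and 479 in WT2 and WT3.

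Of the 12 stem cell markers, 2 passed as higher with the transgene averaged over both backgrounds (0.187% of all genes did), and the estimates of all 12 were higher. The stem cell factor gene Hlf rose by 0.48 on the log2 scale (SE 0.0824, adjusted p = 0.0138 by edgeR). Mecom, another such gene, rose by 0.57 (SE 0.110, adjusted p = 0.0310). Hlf did not pass without C1, C2, CE1 or E3 (adjusted p = 0.0539 to 0.0599) and Mecom did not without C1, C2, C3, CE1, CE2, E2, E3 or WT2 (0.052 to 0.114). The summed CPM of the 12 markers was 1006 to 1126 over WT libraries, 1111 to 1232 over E, 1128 to 1205 over C and 1310 to 1369 over CE. The part of a shift in the composition of the sorted cells in the factor gene values was not tested.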

How the data were processed

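Libraries of total RNA were aligned with STAR 2.5.3 to mm10, per the submitters' processing notes. The deposited table holds raw counts per gene, with 1 column per library. The sources used here do not give the read counter, annotation or strandedness. RefSeq (GRCm38.p6) gave symbols for 25275 of 27179 gene numbers, and the unmatched ones held 0.546 to 2.45% of a library's counts. GENCODE M21 gave transcript lengths and overlaps. Groups were compared with edgeR 4.0.16 (R 4.3.3): TMM, filterByExpr, group means over all 12 libraries and quasi-likelihood F tests, with 14473 genes tested and adjusted p under 0.05 as the threshold. Contrasts were CE against C, E against WT, their mean and their difference, then CE against E and C against WT. CPM are counts scaled by TMM. Alternatives were RLE factors, other count filters, DESeq2 1.42.0, fewer libraries, a replicate block and a Y-linked covariate. That covariate is set by CE1 and CE2 against CE3, as no other group mixes both kinds of library. The fit was tested on simulated data, where changed genes averaged over 1 CPM and all genes shared the same dispersion. That test does not cover genes as low or as variable as several of the factor genes. The 10 genes and the gene lists were chosen with earlier results of these data known. Genes named are the 10, list members past the threshold or, where none passed, those of smallest p, and the 3 nearest genes (average log2 CPM of at least 1). Btk, Syk, Lyn, Fcrla and marker genes were named after their values were seen. A gene that these rules would name is not reported here.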

Additional observations from a re-analysis of the deposited data

How the results depend on the processing

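Counts of genes past the threshold depended on the setting, while the estimates of Pax5, Ebf1, Pou2af1 and Lef1 with the transgene on the knockout background kept their sign under all 14 alternatives. Without a filter on low counts, 217 genes passed in E against WT, 203 in CE against C, 1554 in C against WT, 1172 in CE against E, 39 for the difference and 339 for the averaged effect, and 3, 6, 2, 3, 3 and 4 of the 10 factor genes did. DESeq2 called 47, 60, 1255, 1254, 0 and 183 genes, with 1 factor gene in E against WT, 5 in CE against C and 1 in CE against E. Fits of only the groups compared called 1 gene in E against WT, 110 in CE against C (5 factor genes), 19 in C against WT and 843 in CE against E (2 factor genes). RLE factors called 160 genes and the filter of 1 CPM in 6 libraries 219 genes in C against WT. A Y-linked covariate left 9 genes in CE against C (0 factor genes), 1 in C against WT and 2 in CE against E, and turned Pax5 (-0.0246) and Spib (0.764) in C against WT, Bach2 in CE against C (0.0225) and CE against E (-0.224), Ebf1 for the difference (0.053) and Ikzf3 for the averaged effect (0.0434). Without C1 and C3 together, 3 genes passed in E against WT, 0 in CE against C (0 factor genes), 4 in C against WT, 5 in CE against E and 24 for the averaged effect (2 factor genes), and Ikzf3 averaged 0.131. The labels do not say whether same-numbered libraries pair. Over 15 such pairs their deviations correlated at -0.244 to 0.166, with 4 pairs over 0.1. Of the libraries, 2 correlated best with their own number, and this check cannot settle the pairing. With the replicate number as a block, 28 genes passed in E against WT, 47 in CE against C, 2045 in C against WT and 1475 in CE against E, where Irf4, Spib and Pou2af1 were the 3 factor genes, and the block turned Ikzf3 in E against WT (-0.023) and Ebf1 (0.169) and Tcf3 (-0.0432) for the difference. Leaving out 1 library gave 5 to 21 genes in E against WT, 2 to 13 in CE against C (0 to 2 factor genes), 7 to 2258 in C against WT (0 to 5), 2 to 32 in CE against E and 36 to 109 for the averaged effect (2 to 4), and here signs turned for 15 estimates. These ran from -0.759 to 0.326 for Ikzf3 and -1.12 to 0.694 for Spib in C against WT, and from -0.198 to 0.0228 for Bach2 in CE against C. In CE against E they ran from -0.0143 to 0.222 for Bach2, -0.0108 to 0.147 for Lef1 and -0.932 to 0.00489 for Pax5. In E against WT they ran from -0.187 to 0.0774 for Foxo1, -0.0168 to 1.10 for Ikzf3, -0.256 to 0.618 for Irf4, -0.831 to 0.376 for Pou2af1 and -0.486 to 2.33 for Spib. For the difference they ran from -1.15 to 0.555 for Ebf1 and -0.0499 to 0.103 for Tcf3, and for the averaged effect from -0.265 to 0.363 for Ikzf3 and -0.958 to 0.453 for Spib. The cause was not tested. Ikzf3, Pax5, Ebf1, Lef1 and Irf4 had at most 196 counts in each library, which limits their precision.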

Other observations

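Ebf1 and Pax5 were compared within each library, a choice made after their values were seen. Of the counts of both genes together, Ebf1 made up 56.3% in C1, 55.1% in C2 and 51.0% in C3, and 60.0% in CE1 and in CE3 and 56.3% in CE2. With caspases intact its share was 34.8%, 56.9% and 32.0% in WT2, WT3 and WT4 and 19.0%, 49.0% and 31.6% in E1, E2 and E3. The mean was 56.4 ± 3.38% over the 6 knockout libraries and 37.2 ± 13.6% over the 6 others (SD, n = 6 each). No test is given, since the comparison was picked for this pattern. Y-linked transcripts were present in 5 of the 6 knockout libraries and in 0 of the others. Exact 95% binomial intervals, which cover counting error only, ran from 42.1 to 76.1% in CE1 and CE3 (35 counts each) and from 12.6 to 56.6% in E3 (19 counts). The groups overlapped, since WT3 lay above C1, C2, C3 and CE2. CE3, the knockout library without Y-linked transcripts, was at the top of the range.

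Lef1, which fell 4.48-fold in CE against C, had nearly the same level in E and CE, at 0.931 ± 0.0905 and 0.978 ± 0.0997 CPM (SD, n = 3 each), while WT and C libraries spread from 1.299 to 5.94 CPM. Pou2af1 was as even in CE (highest over lowest library 1.08) and uneven in WT (6.07).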
